A study of Mus musculus with 20 samples.

Results

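Potassium channel genes were followed across 20 RNA-seq libraries of mouse motor neurons, which had been made in culture from embryonic stem cell lines. The genes were taken by symbol, as every gene row that begins with Kcn, a subfamily letter code and a number, and that reached at least 1 CPM (the count scaled to a common total of gene reads) in 2 or more libraries. Of 97 such rows among 24421 gene rows, 64 met the rule, from 18 of 20 subfamilies, and all 64 passed the low-count filter of the test (14792 genes tested). The other 33 rows stayed below that level and include all 5 Kcne auxiliary subunits in the files, whose highest value in any library was 0.553 CPM (Kcne1l).

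Motor neurons were obtained from NIP cells, labelled cranial, and NIL cells, labelled spinal; both are embryonic stem cell lines in which transcription factors are induced to program a motor neuron identity (by their names, Neurogenin and Islet factors with Phox2a in NIP and with Lhx3 in NIL), and day 2 cultures were used. For each line the libraries comprise cultures at 0 h, cultures with 20 µM cyclopiazonic acid (CPA) at 12 h and 36 h, and untreated cultures at 12 h and 36 h, with 2 libraries in each of the 10 groups. CPA blocks the SERCA calcium pump of the endoplasmic reticulum (ER) and causes protein misfolding stress. The times are those of the sample titles; other label text gives 6 and 12 h for the same series. Nothing in the labels says whether the 2 libraries of a group came from separate cultures, so a p-value here reflects the spread of these library pairs alone, and that spread may be technical. Whether a lower value means fewer cells of a type or less RNA per cell cannot be told apart in such bulk samples.

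The libraries held 7996454 to 30321152 reads in genes, of which 7065 to 47298 fell in the 64 potassium channel genes. The ribosomal RNA precursor Rn45s took 5.18% to 38.6% of the gene reads (median 11.6%), and 2 libraries stood apart: untreated NIP 36 h replicate 1 (38.6%) and CPA-treated NIL 36 h replicate 2 (38.3%). Comparisons at 36 h that rest on these are also given from a fit without both, which leaves 1 library in those groups. All CPM values from here on are scaled by TMM factors (0.654 to 1.17), which correct the library total for genes that take up much of it. Between replicate set 2 and set 1, 15 of the 64 genes were higher and 15 lower in a fit with the replicate number as a block, while the same fit called 24.7% and 24.4% of all genes tested higher and lower. All 10 marker genes of neurons were detected in every group, with summed levels from 2204 to 9411 CPM per library. The 12 motor neuron markers were detected in every group as well, except Lhx3, which was at 0 counts in NIP at 12 h with CPA and at 36 h without; 4 were higher and 5 lower in NIP than in NIL at 0 h (4 and 8 with the block). Among 10 genes of the ER stress response, 8 to 10 were higher with CPA in each of the 4 comparisons.

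Potassium channels let K+ leave the cell and so set the resting potential, end the action potential and limit firing. Voltage-gated (Kv) channels are tetramers of pore-forming subunits, to which auxiliary β, KChIP and DPP subunits bind. In some cases silent subunits, which form no channel alone, join them. Inward rectifiers (Kir) and 2-pore-domain (K2P) channels carry most of the current near rest, and calcium- or sodium-activated channels follow firing. In motor neurons, M-current (Kv7), delayed rectifier, A-type and TASK leak channels are known to shape excitability.

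The 64 genes were 25 pore-forming Kv genes, 7 silent Kv genes, 8 auxiliary subunits, 8 inward rectifiers, 8 K2P channels, 6 calcium- or sodium-activated channels and 2 noncoding genes that carry the prefix (Kcnq1ot1 and Kcnmb4os2). Per kilobase of merged exons, averaged over all 20 libraries, Kcnh2, the ERG channel, was among the highest at 17.6 CPM per kb, with the Kv1 subunit Kcna6 at 11.4 CPM per kb. Other high genes were the Kvβ1 gene Kcnab1 (7.28 CPM per kb), the Kv3.4 gene Kcnc4 (7.21 CPM per kb), Kcna1 (6.60 CPM per kb), the EAG gene Kcnh1 (5.85 CPM per kb), the ELK gene Kcnh8 (5.79 CPM per kb), the BK channel β4 subunit Kcnmb4 (5.75 CPM per kb) and the Kir2.2 gene Kcnj12 (5.71 CPM per kb). Of the exon bases of Kcna6, 39.6% overlap an antisense gene, Gm26673, and 31.5% of those of Kcnmb4 overlap antisense transcripts. The strand setting of the counting is not given in the sources used here, so reads of such pairs cannot be told apart. Kcnj15 was the lowest member, at 0.0902 CPM per kb.

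**Figure D1:**
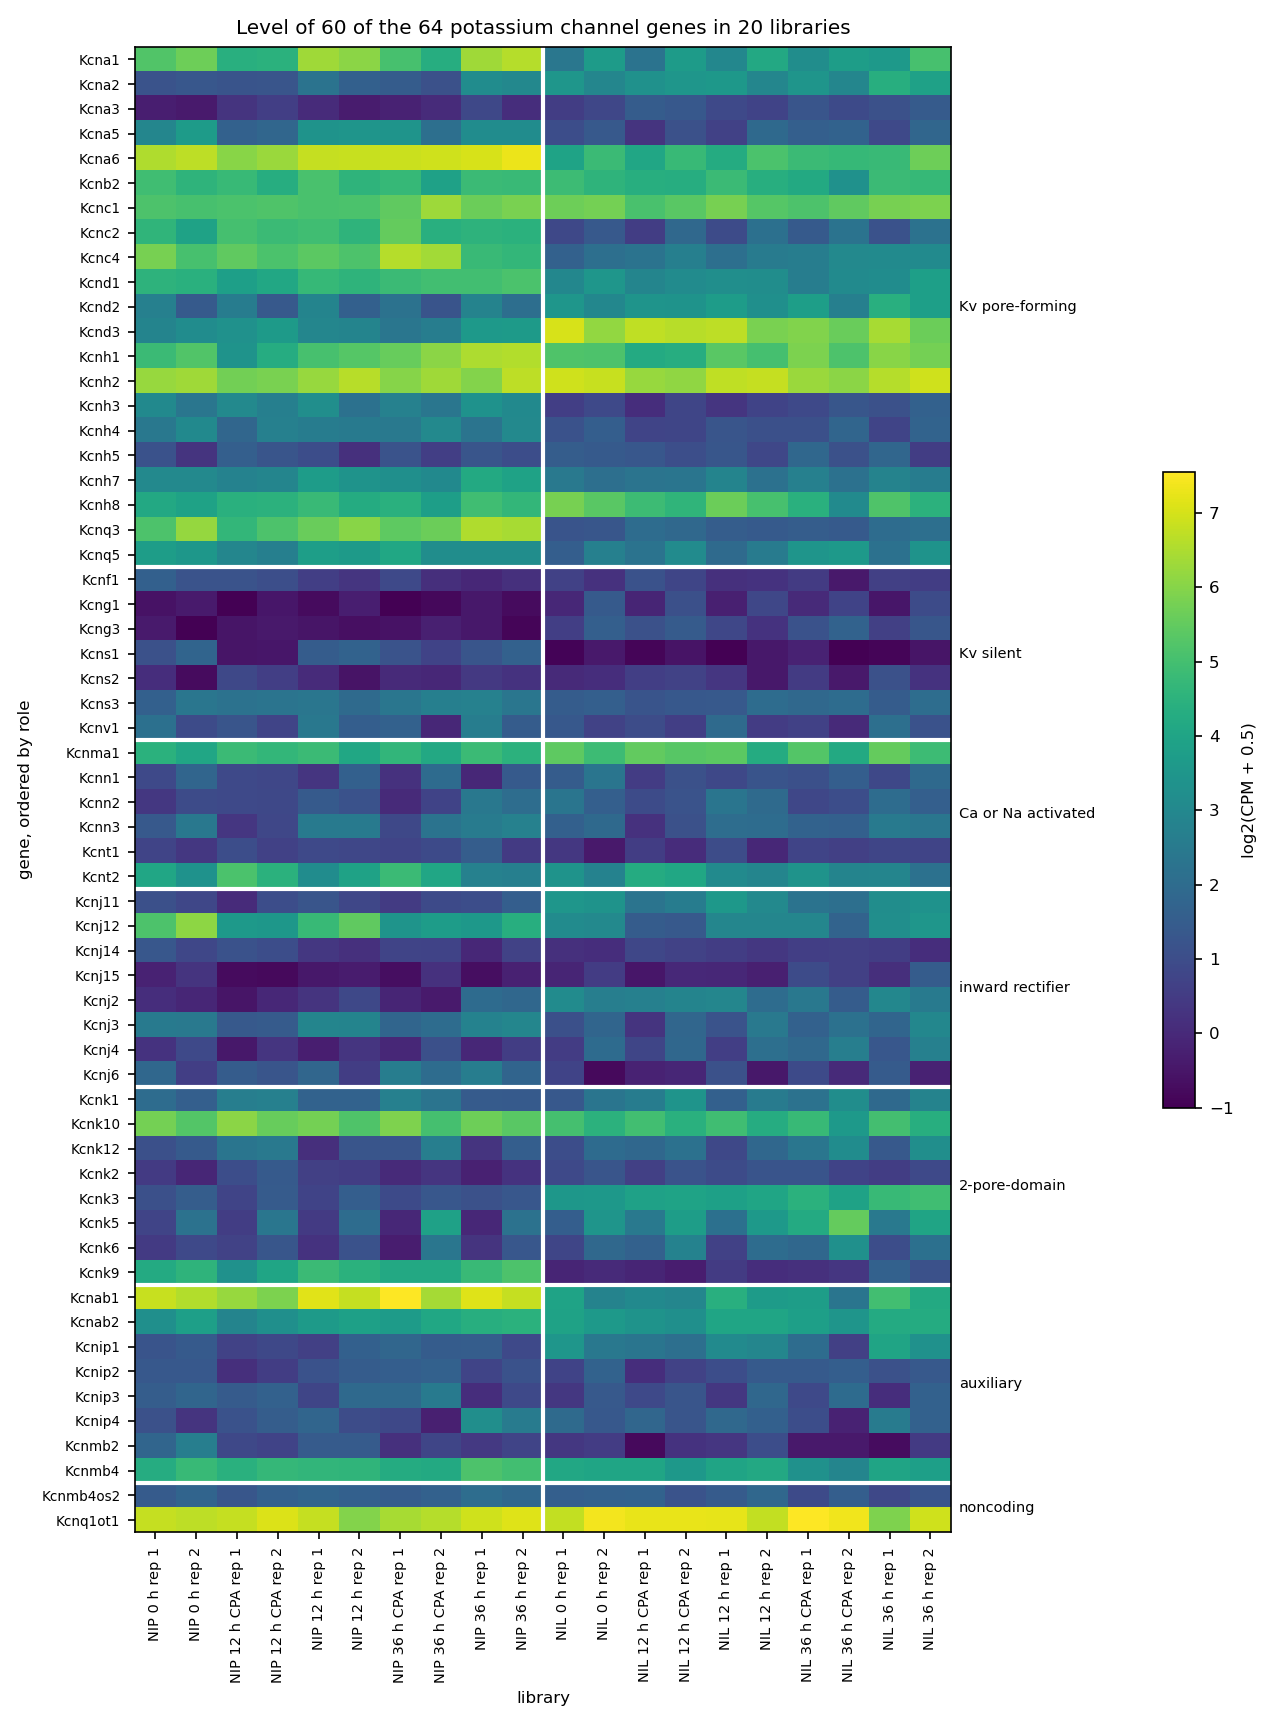
Level of 60 of the 64 potassium channel genes (rows, grouped by role) in each library (columns, NIP left and NIL right), as log2(CPM + 0.5); colours compare libraries within a row, since CPM is not divided by gene length. Kcnh2 was high in every library, while rows such as Kcnq3, Kcnk9, Kcnc4 and Kcnd3 change colour between NIP and NIL.

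The first comparison the design allows is between the NIP and NIL lines. With 1 line for each label, cranial or spinal identity cannot be told apart from other differences between the lines or their cultures. In NIP against NIL at 0 h, 14 of the 64 genes were higher and 11 lower (edgeR quasi-likelihood test, adjusted p under 0.05), where 7.86% of all genes tested were higher and 4.61% lower. At 12 h without CPA 14 were higher and 8 lower (7.68% and 4.28% of all genes), and at 36 h without CPA 14 were higher and 6 lower (7% and 4.56% of all genes). In each called case the 2 NIP libraries did not overlap the 2 NIL libraries, which a call with so few libraries nearly implies and which adds no support. With the replicate number as a block the counts were 21 higher and 16 lower at 0 h (14.3% and 12.1% of all genes), 18 and 15 at 12 h (14.5% and 13.5%) and 19 and 12 at 36 h (14.1% and 14.7%). The median log2 change over the 64 genes was -0.04 at 0 h, 0.07 at 12 h and 0.14 at 36 h, beside -0.01 over all genes tested at 12 h and 36 h, so members moved in both directions. At all 3 times 12 genes were higher in NIP (Kcna1, Kcna5, Kcna6, Kcnab1, Kcnc2, Kcnc4, Kcnd1, Kcnh3, Kcnh4, Kcnk9, Kcnq3 and Kcns1) and 5 lower (Kcna2, Kcnd3, Kcnip1, Kcnj11 and Kcnk3). Of these, Kcns1 met the level rule through NIP libraries alone. In all, 27 were called at 1 time or more. For counts over several comparisons, here and below, the matching shares of all genes tested were not worked out. Leaving out any 1 of the 4 libraries of a comparison kept 12 of the 25 calls at 0 h, 11 of 22 at 12 h and 8 of 20 at 36 h. The counts moved most without NIL replicate 1 (13 at 0 h, 12 at 12 h and 13 at 36 h), NIP replicate 2 at 0 h (15) and 36 h (13), and NIP replicate 1 at 12 h (14). Without the 2 Rn45s-rich libraries 14 were called at 36 h (5.52% of all genes tested) and 26 with the block (20.9%); the 6 calls lost without the block were Kcna1, Kcna2, Kcna5, Kcnh3, Kcnh4 and Kcnj11, and Kcna1 and Kcna5 were lost with it as well. By role, 9 of the 25 pore-forming Kv genes were higher and 5 lower at 0 h, 2 and 2 of the 8 inward rectifiers, and 1 and 1 each of the 8 auxiliary, 8 K2P and 7 silent Kv genes. Of the 6 calcium- or sodium-activated genes 1 was lower. In all, 33 of the 64 genes were called in none of the 12 comparisons without the block, and 8 of these in none with it, Kcnh5, Kcnk1, Kcnk2, Kcnk6, Kcnn1, Kcnq1ot1 and Kcnt1 among them.

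**Figure D2:**
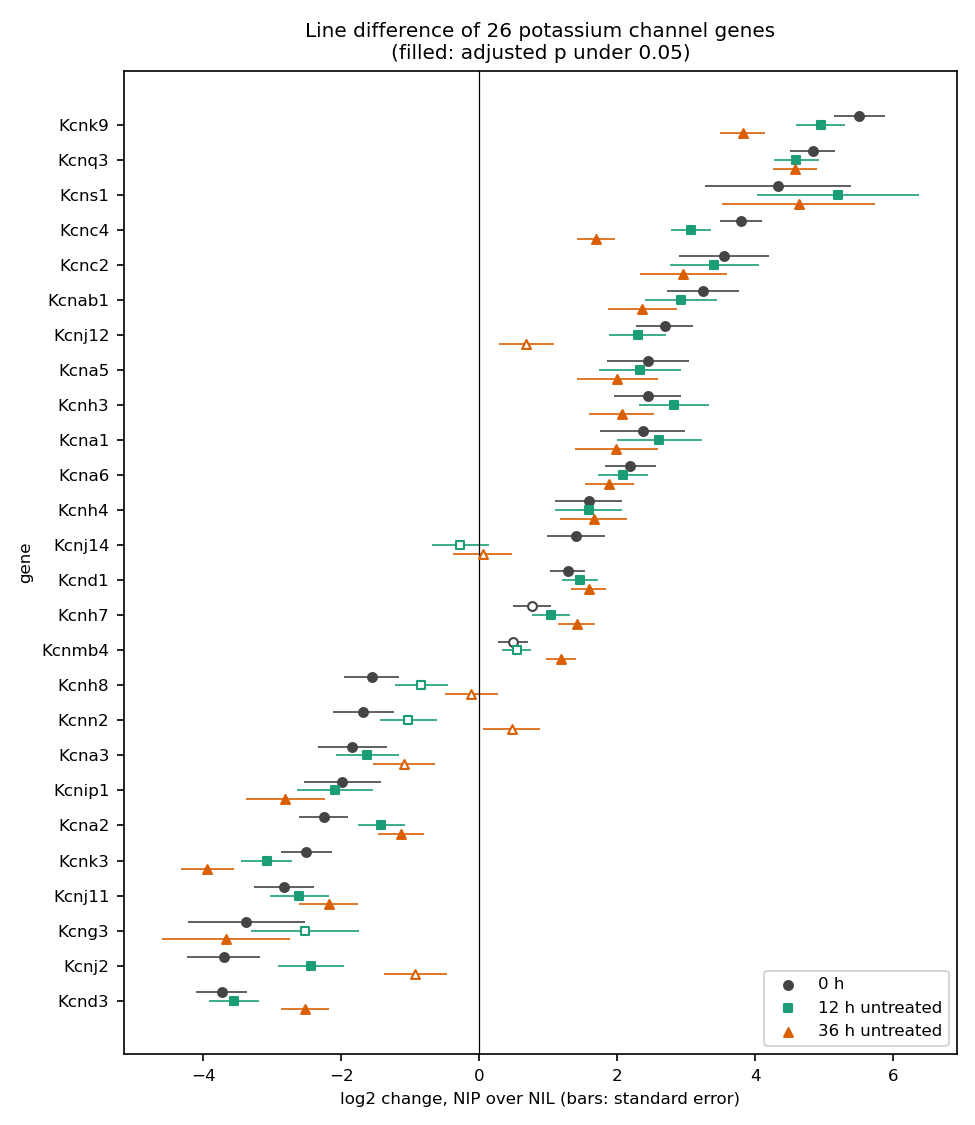
Log2 change of NIP over NIL (x axis) for 26 of the 27 potassium channel genes called at 1 time or more (y axis), at 0 h (circles), 12 h (squares) and 36 h (triangles) without CPA; bars are standard errors and filled marks passed an adjusted p of 0.05. Kcnk9 stands at the top with 5.51 at 0 h and Kcnd3 at the bottom with -3.73.

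Among the Kv7 genes, Kcnq3, a subunit of M-channels, was at 35.2 and 73.2 CPM in NIP at 0 h, against 1.85 and 1.95 CPM in NIL. At 36 h it was at 92.1 and 85.7 CPM in NIP and 3.58 and 3.89 CPM in NIL. Every NIP library, CPA-treated ones included, held more Kcnq3 than any NIL library. Kcnq3 lies at chr15:65986387-66286642 (GRCm38), on the minus strand. Its log2 change was 4.83 ± 0.33 at 0 h (SE, adjusted p = 2e-06, edgeR). Kcnq5, a further M-channel subunit, was at 13.2 and 11 CPM in NIP and 2.45 and 6.10 CPM in NIL at 0 h, and passed with the block alone (log2 change 1.63 ± 0.46, adjusted p = 0.0174, and 0.0607 without it).

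The Kv1 genes, which encode low-threshold channels of axons, divided by line. Kcna1 was at 37.4 and 50.2 CPM in NIP and 4.75 and 12.5 CPM in NIL at 0 h, a log2 change of 2.37 ± 0.62 (adjusted p = 0.0222, edgeR). Kcna6 was at 91.2 and 104 CPM in NIP and 15.1 and 27.9 CPM in NIL, with a log2 change of 2.19 ± 0.37 (adjusted p = 0.00127, edgeR). Kcna5 was higher in NIP as well, by 2.45 ± 0.59 at 0 h. Kcna2, in contrast, was at 1.79 and 1.99 CPM in NIP and 10.9 and 7.03 CPM in NIL, with a log2 change of -2.26 ± 0.36 (adjusted p = 0.000884, edgeR). Kcna3 was lower in NIP at 0 h and 12 h (-1.84 ± 0.50 and -1.62 ± 0.46), though neither call held when any 1 library was left out. Of the summed per-kilobase level of these 5 genes, Kcna2 made up 0.510% to 1.66% in untreated NIP and 5.04% to 16.9% in untreated NIL libraries. The Kvβ1 gene Kcnab1, whose product binds Kv1 channels and can make them inactivate fast, was at 114 and 94.6 CPM in NIP and 15 and 6.61 CPM in NIL at 0 h (log2 change 3.25 ± 0.52, adjusted p = 0.00101, edgeR). Its paralog Kcnab2 differed by -0.20 ± 0.24 at 0 h and was not called.

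The Kv4 genes, pore subunits of the A-type current, were divided in the same way. Kcnd3 was at 6.73 and 8.48 CPM in NIP at 0 h, against 130 and 71.3 CPM in NIL. Its log2 change was -3.73 ± 0.37 at 0 h and -2.52 ± 0.35 at 36 h (adjusted p = 2.65e-05 and 0.000371, edgeR), and it passed with each library left out at all 3 times. Kcnd1 was at 22.8 and 20.8 CPM in NIP and 7.24 and 10.8 CPM in NIL at 0 h, with a log2 change of 1.28 ± 0.25. Kcnd1 made up 69.7% to 78.3% of the summed per-kilobase Kv4 level in untreated NIP libraries and 8.04% to 24.9% in untreated NIL libraries. The share of Kcnd3 was 10.6% to 16.9% in untreated NIP and 49.3% to 79.6% in untreated NIL. The main Kv4 subunit therefore changed with the line in every untreated library. Kcnd2 was at 6.08 and 2.17 CPM in NIP and 10.9 and 7.28 CPM in NIL at 0 h and passed only with the block (-1.19 ± 0.31, adjusted p = 0.00904). Kcnip1, a calcium-binding KChIP subunit of Kv4 channels, was at 2.38 and 1.33 CPM in NIP and 15.5 and 9.63 CPM in NIL at 36 h, with a log2 change of -2.81 ± 0.58 (adjusted p = 0.00597, edgeR).

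Kv3 channels repolarize fast and allow high firing rates. Their genes Kcnc4 and Kcnc2 were higher in NIP at all 3 times. Kcnc4 (chr3:107438303-107459552, minus strand) was at 54.9 and 32.9 CPM in NIP and 2.65 and 3.81 CPM in NIL at 0 h, and at 27.5 and 24.7 CPM in NIP and 8.03 and 8.07 CPM in NIL at 36 h. Its log2 change was 3.79 ± 0.30 at 0 h and 1.70 ± 0.28 at 36 h (adjusted p = 4.85e-06 and 0.00118, edgeR). Kcnc2 was at 23.8 and 14.9 CPM in NIP and 1.31 and 2.12 CPM in NIL at 0 h (3.55 ± 0.65). Kcnc1 was not called at any time without the block, with a log2 change of -0.60 ± 0.23 at 0 h, and passed at 0 h with it (adjusted p = 0.0437).

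Of the EAG, ERG and ELK genes, 2 of the 3 ELK genes, Kcnh3 and Kcnh4, were higher in NIP at all 3 times, by 2.44 ± 0.49 and 1.59 ± 0.48 at 0 h. The Kv11.3 gene Kcnh7 was at 17.8 and 14.6 CPM in NIP and 6.55 and 5.55 CPM in NIL at 36 h (1.41 ± 0.27, adjusted p = 0.00424, edgeR). The remaining ELK gene, Kcnh8, was lower in NIP at 0 h, at 17.4 and 14.9 CPM against 54.7 and 40.5 CPM in NIL (-1.56 ± 0.40), and at 36 h the change was -0.11 ± 0.39. Kcnh2 did not pass without the block at any time, although it was at 75.1 and 79.4 CPM in NIP and 123 and 113 CPM in NIL at 0 h (-0.61 ± 0.22; adjusted p = 0.0953, and 0.0218 with the block). The delayed rectifier gene Kcnb2 was not called at 0 h, with a log2 change of 0.05 ± 0.32.

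Leak channels of the TASK type set the resting potential and are closed by acid and by several transmitters. The TASK-3 gene Kcnk9 (chr15:72501089-72546340, minus strand) was at 18.3 and 23.2 CPM in NIP at 0 h, against 0.414 and 0.508 CPM in NIL. Its log2 change was 5.51 ± 0.37 at 0 h, 4.95 ± 0.35 at 12 h and 3.82 ± 0.32 at 36 h (adjusted p = 2e-06, 2.51e-06 and 8.39e-06, edgeR). The TASK-1 gene Kcnk3 (chr5:30588170-30625271, plus strand) went the other way, at 1.63 and 2.35 CPM in NIP and 11.1 and 11.3 CPM in NIL at 0 h, and at 1.67 and 1.97 CPM in NIP and 26.8 and 30.0 CPM in NIL at 36 h. Its log2 change was -2.51 ± 0.37 at 0 h and -3.94 ± 0.39 at 36 h (adjusted p = 0.000505 and 2.82e-05, edgeR). Per kilobase, Kcnk9 made up 74.4% to 88.7% of the TASK-1 and TASK-3 sum in the 6 untreated NIP libraries and 1.17% to 3.09% in the 6 untreated NIL libraries. Under CPA the share was 69.5% to 80.2% in NIP and 0.666% to 1.64% in NIL. Of Kcnk9 and Kcnk3, the predominant gene thus differed by line in all 20 libraries. The K2P gene Kcnk5 (TASK-2) is not part of this sum. The TREK-2 gene Kcnk10, the highest K2P gene per kilobase at 4.12 CPM per kb, was at 53.3 and 38.1 CPM in NIP and 32.3 and 22.1 CPM in NIL at 0 h and passed only with the block (0.76 ± 0.16, adjusted p = 0.00247).

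Strong inward rectifiers of the Kir2 family hold the membrane near the potassium equilibrium potential. Kcnj12 was at 35.6 and 67.8 CPM in NIP and 8.29 and 7.71 CPM in NIL at 0 h, with a log2 change of 2.69 ± 0.41 (adjusted p = 0.00069, edgeR). By 36 h without CPA it was at 11.2 and 20.0 CPM in NIP and 8.76 and 10.9 CPM in NIL and was no longer called (0.69 ± 0.40). Its paralog Kcnj2, the Kir2.1 gene, was at 0.597 and 0.451 CPM in NIP and 8.16 and 5.84 CPM in NIL at 0 h (-3.71 ± 0.53, adjusted p = 0.000398, edgeR), and at 3.46 and 3.12 CPM in NIP and 7.24 and 5.16 CPM in NIL at 36 h (-0.93 ± 0.46, not called). Kcnj12 and Kcnj2 thus differed by line in opposite directions at 0 h. The KATP pore gene Kcnj11 was lower in NIP at all 3 times, at 1.63 and 1.26 CPM in NIP and 10.9 and 9.91 CPM in NIL at 0 h (-2.83 ± 0.44, adjusted p = 0.000747, edgeR). The Girk genes Kcnj3 and Kcnj6, which answer to G protein-coupled receptors, were not called without the block, with changes of 1.19 ± 0.61 and 1.57 ± 0.99 at 0 h, and were higher in NIP with it (adjusted p = 0.0390 and 0.0427). The NIP and NIL libraries of Kcnj6 overlapped at 0 h. For Kcnj3, 31.1% of the exon bases overlap an antisense gene.

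**Figure D3:**
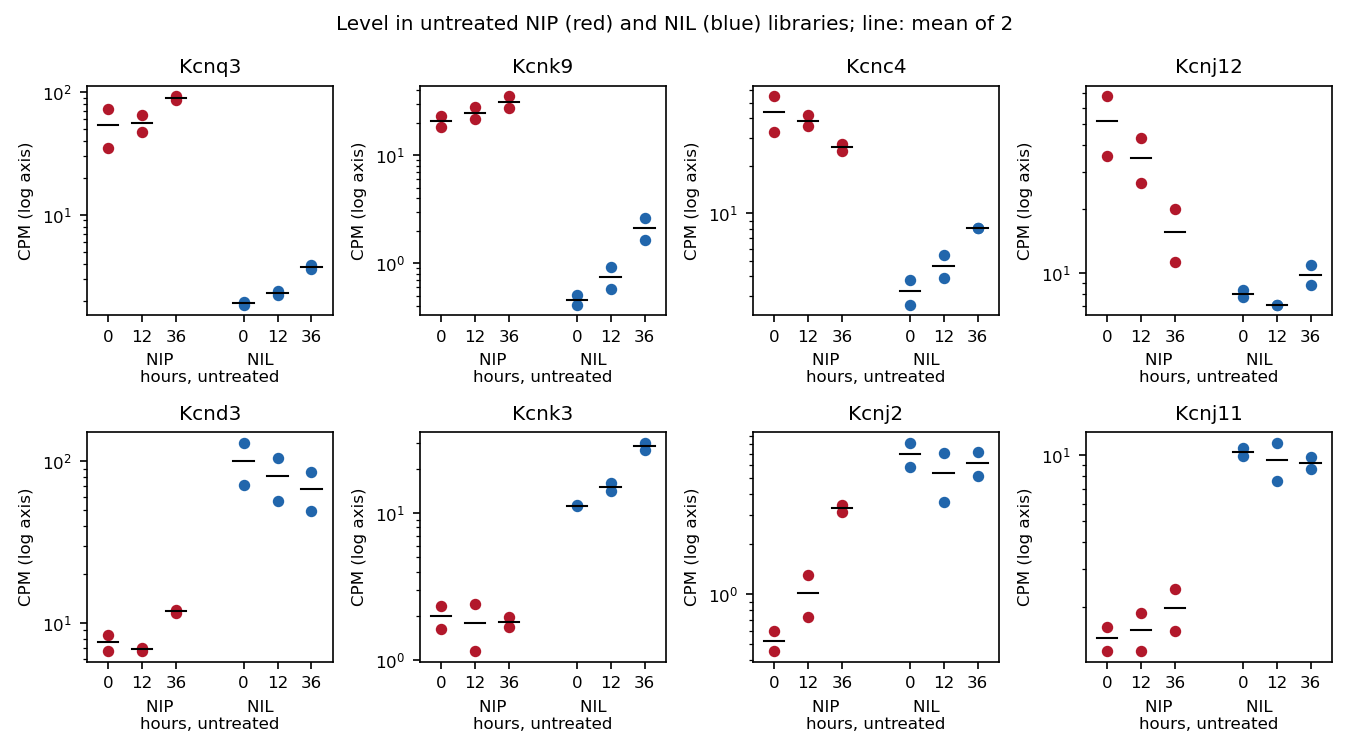
CPM (log axis) of 8 potassium channel genes in the untreated libraries at 0, 12 and 36 h, NIP in red on the left and NIL in blue on the right of each panel; points are libraries and lines the mean of 2. Kcnq3, Kcnk9, Kcnc4 and Kcnj12 (top) were higher in NIP and Kcnd3, Kcnk3, Kcnj2 and Kcnj11 (bottom) lower, with the Kcnj12 and Kcnj2 groups closest at 36 h.

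Silent subunits alter the gating of the Kv channels they join. Kcns1 was at 1.68 and 2.89 CPM in NIP and 0.0319 and 0.254 CPM in NIL at 0 h. At 12 h it had 129 reads in NIP and 2 in NIL over both libraries, a ratio of 47.2 after correction for depth (95% exact interval 12.8 to 394, counting error only). At 36 h it had 74 reads in NIP and 3 in NIL, a ratio of 31.0 (10.2 to 154). Kcng3 was lower in NIP at 0 h and 36 h; at 36 h it had 3 reads in NIP and 49 in NIL, a ratio of 0.0769 (0.0153 to 0.238). Both are low in level and their log2 changes depend on a few reads. Before TMM scaling, Kcns1 reached 1 CPM in 8 libraries, all of them NIP, and Kcng3 in 9, all of them NIL, so each met the level rule only through the line where it is high and its line difference is no independent support. The same holds for Kcng1 and Kcnj15, which reached it in NIL alone.

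Among the activated channels, the SK2 gene Kcnn2 was lower in NIP at 0 h, at 0.814 and 1.44 CPM against 4.49 and 2.54 CPM in NIL (-1.68 ± 0.44, adjusted p = 0.0233, edgeR), and differed by 0.47 ± 0.41 at 36 h. SK channels carry the afterhyperpolarization of motor neurons. The BK channel gene Kcnma1 was at 21.8 and 16.1 CPM in NIP and 42.7 and 28.6 CPM in NIL at 0 h and passed only with the block (-0.90 ± 0.22, adjusted p = 0.00554). Its neuronal β4 subunit Kcnmb4 was higher in NIP at 36 h, at 35.7 and 31.1 CPM against 15.4 and 13.8 CPM in NIL (1.19 ± 0.22, adjusted p = 0.00267, edgeR). The Kcnmb4 antisense transcript Kcnmb4os2 had a log2 change of 1.13 ± 0.36 at 36 h (adjusted p = 0.0595, and 0.0200 with the block). The sodium-activated channel gene Kcnt1 stayed between 0.254 and 2.38 CPM in the 20 libraries and was not called in any comparison.

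Partners of potassium channels that do not carry the Kcn prefix were taken as a list of 21 genes, of which 18 were tested. In NIP against NIL, 2 were higher and 1 lower at 0 h, 3 and 1 at 12 h and 5 and 3 at 36 h. With the block it was 8 and 3, 8 and 4, and 5 and 5. Of all genes tested, 7.86%, 7.68% and 7% were higher and 4.61%, 4.28% and 4.56% lower at these times. With the block 14.3%, 14.5% and 14.1% of all genes were higher and 12.1%, 13.5% and 14.7% lower. Amigo1, an adhesion protein that accompanies delayed rectifier channels, was higher in NIP at all 3 times (3.05 ± 0.29 at 0 h, adjusted p = 2.32e-05, edgeR). Abcc8, the sulfonylurea receptor that joins Kcnj11 in KATP channels, was lower in NIP at all 3 times (-2.53 ± 0.46 at 0 h, adjusted p = 0.00243, edgeR). The Abcc8 call held with each library left out in turn at 0 h, but not at 12 h or 36 h. At 36 h the Kv4 partner Dpp6 was higher in NIP (1.85 ± 0.52, adjusted p = 0.0325, edgeR). The anchoring protein gene Akap5, whose product binds M-channels, was higher too (1.82 ± 0.35, adjusted p = 0.00398, edgeR). Neither of these calls held with every library left out in turn. Values without the Rn45s-rich libraries are not given for the partner genes.

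Markers of other cell types differed between the lines as well. Summed over 12 markers of endoderm and endothelium, the 6 untreated libraries of each line held 782 to 4092 CPM in NIP and 3369 to 20653 CPM in NIL; 0 of 12 were called without the block and 2, 10 and 11 were lower in NIP with it at 0, 12 and 36 h. Over 12 pluripotency markers the sums were 14.5 to 55.7 CPM in NIP and 44.0 to 366 CPM in NIL (0, 1 and 1 lower, and 7, 8 and 8 with the block). Over 12 proliferation markers they were 77.5 to 235 CPM in NIP and 265 to 801 CPM in NIL (0, 0 and 1 lower, and 11, 12 and 12 with the block). Over 9 tested mesenchyme markers they were 14.4 to 51.0 CPM in NIP and 70.3 to 247 CPM in NIL (4, 0 and 1 lower, and 7, 8 and 7 with the block). Glia and progenitor markers summed to 567 to 1279 CPM in NIP and 510 to 902 CPM in NIL; of 8 tested, 1, 0 and 0 were higher and 2, 2 and 1 lower in NIP (1 higher at each time and 5, 5 and 3 lower with the block), with median log2 changes of -2.37, -2.31 and -1.24. The 10 neuron markers summed to 7299 to 9379.6 CPM in NIP and 4839 to 9411 CPM in NIL, and 0, 0 and 1 of 10 were lower in NIP, with 2, 1 and 3 higher and 0, 0 and 1 lower with the block. The 10 ER stress genes, before any CPA, summed to 1731 and 1412 CPM in NIP and 678 and 806 CPM in NIL at 0 h; 7, 2 and 1 were higher in NIP at 0, 12 and 36 h (8, 3 and 1 with the block). The part of these other cells and of the stress genes in the line differences of potassium channel genes was not tested. For all these marker counts, the shares of all genes tested are those given above for the lines.

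Over 36 h in culture without CPA, 4 potassium channel genes rose in NIP and 0 fell (0.69% and 0.602% of all genes tested rose and fell). Kcna2 was at 8.46 and 7.43 CPM at 36 h and 1.79 and 1.99 CPM at 0 h (log2 change 2.07 ± 0.36, adjusted p = 0.0163, edgeR). Kcnj2 was at 3.46 and 3.12 CPM at 36 h and 0.597 and 0.451 CPM at 0 h (2.61 ± 0.53, adjusted p = 0.0303). The EAG1 gene Kcnh1 was at 89.3 and 94.4 CPM at 36 h and 28.2 and 37.0 CPM at 0 h (1.5 ± 0.3, adjusted p = 0.0281). Each of the 4 calls was lost when any 1 of the 4 libraries was left out. In a fit that drops the 2 libraries richest in Rn45s, which leaves 1 untreated NIP library at 36 h, the log2 changes were 1.98, 2.54 and 1.54 for Kcna2, Kcnj2 and Kcnh1, with adjusted p between 0.147 and 0.188; 0 members were called there (0.00657% of all genes tested) and 8 with the block (2.91%), these 3 among them. With the block 11 rose and 4 fell (4.69% and 4.4% of all genes); Kcnn2, Kcnip4, Kcnh7, Kcnq3, Kcnab2 and Kcnh8 were among the others that rose, and Kcnj12, Kcnf1, Kcnt2 and Kcnmb2 fell. In the same comparison 2 of the 10 ER stress genes fell in NIP, and 9 with the block, with a median log2 change of -1.15; their part in these changes was not tested.

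In NIL, 0 potassium channel genes passed between 36 h and 0 h, where 0.027% of all genes tested did (edgeR). At an unadjusted p under 0.05 there were 9 (5.78% of all genes), and DESeq2 called 3 (0.711%). With the block 4 rose and 0 fell (0.744% and 0.196% of all genes): Kcnk9, at 2.64 and 1.65 CPM at 36 h and 0.414 and 0.508 CPM at 0 h (2.33 ± 0.39, adjusted p = 0.00982 with the block, 0.0712 without), Kcnk3, Kcnc4 and Kcnab1. The median log2 change over the 64 genes was 0.38 in NIP and 0.30 in NIL, beside -0.02 and 0.01 over all genes.

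Under CPA the potassium channel genes lay more often below than above the untreated level. Of the 64, 60.9% and 64.1% had a negative log2 change in NIP at 12 h and 36 h and 62.5% and 67.2% in NIL, where over all genes tested it was 51.0%, 46.8%, 53.7% and 49.0% in the same order. The medians of the 64 genes were -0.25 and -0.26 in NIP and -0.23 and -0.42 in NIL at 12 h and 36 h, beside -0.01, 0.03, -0.03 and 0.01 over all genes. In all 4 comparisons 23 genes had a negative change, the K2P genes Kcnk3 and Kcnk9 among them. A positive change in all 4 was seen for 7 (Kcng3, Kcnj14, Kcnk1, Kcnk12, Kcnk5, Kcnk6 and Kcnt2), and 4 of these 7 are K2P genes. The matching shares over all genes tested were not worked out, so these counts are descriptive. The 10 neuron markers had median log2 changes of -0.62 and -0.47 in NIP and -0.78 and -0.88 in NIL. Without the block 0 and 0 of 10 were lower in NIP at 12 h and 36 h, and 0 and 1 in NIL. With it 5 and 2 were lower in NIP and 5 and 9 in NIL. Of all genes tested, 6.54% and 5.15% were lower in NIP with the block, and 3.77% and 11% in NIL. The 12 markers of endoderm and endothelium summed to 17956 and 36599 CPM in NIL at 36 h with CPA, against 6205 and 20653 CPM without. In NIP at 36 h they summed to 511 and 9355 CPM with CPA and 782 and 4092 CPM without. There replicate 1 was lower with CPA and replicate 2 higher. Of these 12 markers 0 were called in any of the 4 comparisons, with or without the block. The part of such cells in the lower potassium channel values was not tested.

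Individual calls with CPA were few in the fit without the replicate block and more numerous with it. In NIP, 0 genes were higher and 4 lower at 12 h (2.96% and 1.74% of all genes tested), and 2 were higher and 4 lower at 36 h (1.33% and 0.994%). With the block it was 4 and 18 at 12 h (7.54% and 6.54% of all genes) and 3 and 10 at 36 h (5.1% and 5.15%). In NIL 0 genes passed at 12 h, beside 2.21% of all genes, and 0 at 36 h, beside 0.98% (edgeR). At an unadjusted p under 0.05 NIL had 12 genes at 12 h (13.6% of all genes) and 19 at 36 h (17.2%), and DESeq2 called 1 (5.31%) and 4 (5.82%). With the block NIL had 1 higher and 5 lower at 12 h (4.16% and 3.77% of all genes) and 1 higher and 14 lower at 36 h (7.25% and 11%). No call in NIP held with each of the 4 libraries left out in turn: at 12 h 1 was called without CPA-treated replicate 2 and 0 without any other, and at 36 h 0 were called without either untreated library, 2 without CPA-treated replicate 1 and 3 without CPA-treated replicate 2. In NIL at 36 h, 3 were lower without CPA-treated replicate 1.

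**Figure D4:**
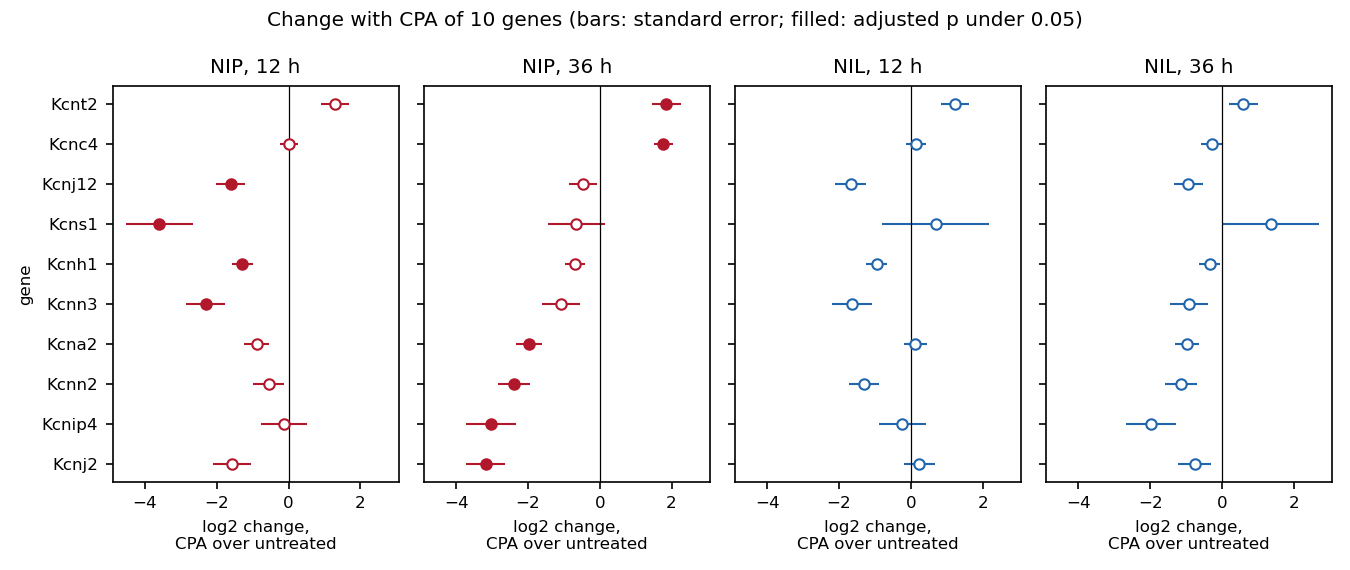
Log2 change of CPA-treated over untreated libraries (x axis) for the 10 potassium channel genes called in at least 1 of 4 comparisons (y axis), by line and time; bars are standard errors and filled marks passed an adjusted p of 0.05. The filled marks are in the NIP panels; Kcnj2 has -3.18 and Kcnt2 1.85 in NIP at 36 h, and the Kcnt2 change is positive in all 4 panels.

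At 12 h the genes lower with CPA in NIP were Kcnh1, Kcnn3, Kcnj12 and Kcns1. Kcnh1 was at 10.0 and 19.3 CPM with CPA and 33.1 and 38.5 CPM without (-1.29 ± 0.30, adjusted p = 0.0255, edgeR). The SK3 gene Kcnn3 was at 0.768 and 1.26 CPM with CPA and 5.09 and 5.06 CPM without (-2.31 ± 0.55, adjusted p = 0.0300). Kcnj12 was at 11.6 and 11.2 CPM with CPA and 26.4 and 43.3 CPM without (-1.62 ± 0.39, adjusted p = 0.0332). In none of these did the CPA-treated libraries overlap the untreated ones, which a call with so few libraries nearly implies. In NIL at 12 h, Kcnj12 was at 2.31 and 2.11 CPM with CPA and 7.10 and 7.08 CPM without (-1.68 ± 0.42, adjusted p = 0.0632, and 0.0171 with the block). Kcns1, at 0.192 and 0.210 CPM with CPA and 2.3 and 2.74 CPM without in NIP, passed at an adjusted p of 0.0442 (edgeR). Over both libraries it had 9 reads with CPA and 129 without. The 8 libraries through which Kcns1 met the level rule do not include these CPA-treated ones, so its call is no independent support.

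At 36 h in NIP, the genes lower with CPA were Kcnj2, Kcna2, Kcnn2 and Kcnip4. Kcnj2 was at 0.423 and 0.269 CPM with CPA and 3.46 and 3.12 CPM without (-3.18 ± 0.54, adjusted p = 0.00766, edgeR), so that the treated libraries stood close to the 0 h level of 0.597 and 0.451 CPM. Kcna2 was at 2.33 and 1.68 CPM with CPA and 8.46 and 7.43 CPM without (-1.97 ± 0.35, adjusted p = 0.0105). Kcnn2 was at 0.508 and 1.14 CPM with CPA and 4.89 and 3.67 CPM without (-2.39 ± 0.45, adjusted p = 0.0153). The KChIP4 gene Kcnip4, whose product modulates Kv4 inactivation, was at 1.31 and 0.337 CPM with CPA and 8.82 and 5.41 CPM without (-3.03 ± 0.70, adjusted p = 0.0394). All 4 had higher levels at 36 h than at 0 h in untreated NIP, and this contrast shares those 36 h libraries. Without the 2 libraries richest in Rn45s, which leaves 1 untreated NIP library, the log2 changes were -3.11, -1.88, -2.18 and -2.65 for Kcnj2, Kcna2, Kcnn2 and Kcnip4, with adjusted p between 0.0763 and 0.199 (0 members and 0.0328% of all genes called). With the block that fit called 7 members (4.35% of all genes), these 4 among them. In NIL at 36 h the changes were -0.76 for Kcnj2, -0.97 for Kcna2, -1.14 for Kcnn2 and -1.99 for Kcnip4, and Kcna2 and Kcnip4 passed with the block (adjusted p = 0.0128 and 0.00743). None of the 15 NIL calls made with the block at 36 h passed without the 2 Rn45s-rich libraries (0 called, beside 2.65% of all genes); Kcna2 and Kcnip4 then had log2 changes of -0.86 and -1.68 (adjusted p = 0.145 and 0.0955).

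Kcnc4 and Kcnt2 were the genes higher with CPA in NIP at 36 h. Kcnc4 was at 95.8 and 82.7 CPM with CPA and 27.5 and 24.7 CPM without (1.77 ± 0.27, adjusted p = 0.00466, edgeR). At 12 h the CPA-treated NIP libraries held 43.4 and 34.4 CPM and the untreated ones 41.8 and 35.5 CPM, so the groups overlapped. In NIL at 36 h it was at 5.71 and 7.57 CPM with CPA and 8.03 and 8.07 CPM without. Kcnt2, a sodium-activated channel gene, was at 27.7 and 16.1 CPM with CPA and 6.20 and 5.96 CPM without in NIP at 36 h (1.85 ± 0.40, adjusted p = 0.0306). In NIP at 12 h it was at 34.7 and 21.7 CPM with CPA and 8.38 and 14.6 CPM without (1.30 ± 0.39, adjusted p = 0.0814, and 0.00927 with the block). In NIL at 12 h it was at 18.8 and 16.6 CPM with CPA and 8.12 and 6.85 CPM without (1.24 ± 0.40, adjusted p = 0.149, and 0.0171 with the block). The treated libraries lay above the untreated ones in each of these 3 comparisons. In NIL at 36 h the groups overlapped, at 10.0 and 6.80 CPM with CPA and 6.98 and 4.09 CPM without (0.59 ± 0.40). Without the Rn45s-rich libraries the 36 h changes in NIP were 1.85 for Kcnc4 and 1.88 for Kcnt2, with adjusted p of 0.0862 and 0.236, and both passed with the block (0.00555 and 0.0433).

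**Figure D5:**
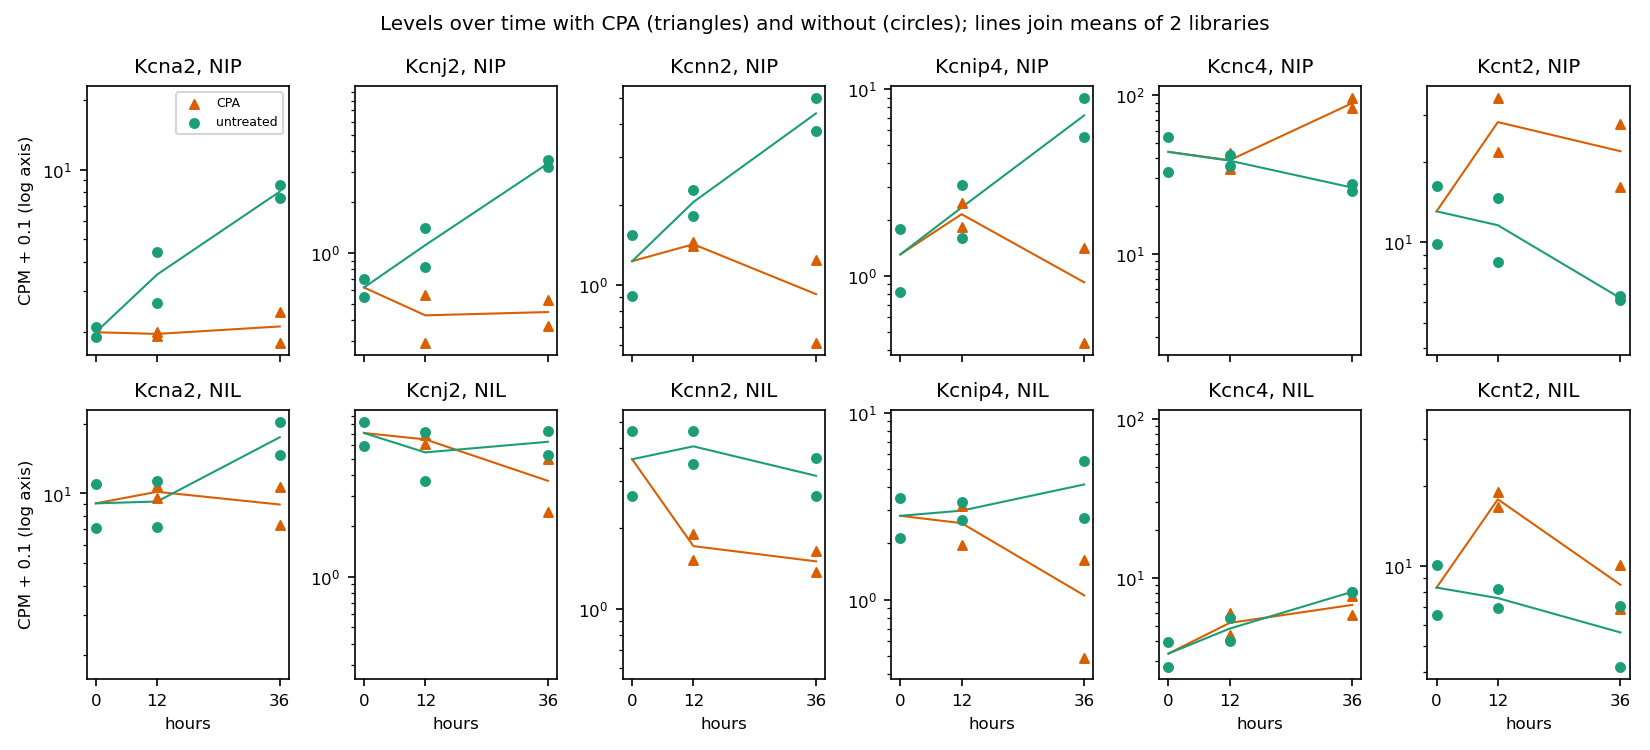
CPM + 0.1 (log axis) against hours for 6 potassium channel genes in NIP (top) and NIL (bottom), with CPA (triangles) and without (circles); lines join the means of 2 libraries and both start at the shared 0 h libraries. In NIP, untreated Kcna2, Kcnj2, Kcnn2 and Kcnip4 lie above the treated libraries at 36 h, while treated Kcnc4 and Kcnt2 lie above the untreated ones.

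With CPA, Kcnq3 fell in NIP with the block at both times, by 0.90 and 0.96 on the log2 scale (adjusted p = 0.0096 and 0.00881), as did Kcnk9 by 0.99 and 0.83 (0.0105 and 0.0359); without the Rn45s-rich libraries the adjusted p at 36 h were 0.135 and 0.0820. Kcnk9 was lower in NIL at 36 h too, at 0.634 and 0.770 CPM with CPA and 2.64 and 1.65 CPM without (-1.72 ± 0.41, adjusted p = 0.0102 with the block and 0.0517 without; 0.0710 with the block when the Rn45s-rich libraries are left out). Of the 8 auxiliary subunits, Kcnip1, Kcnip4, Kcnab1 and Kcnmb4 were lower in NIL at 36 h with the block, where 11% of all genes were, and 0 without it; with the block and without the Rn45s-rich libraries their adjusted p lay between 0.0597 and 0.220. Of the 18 partner genes tested, Akap5 alone was lower with CPA in NIP without the block, and 0 passed in NIL. Of all genes tested, 1.74% and 0.994% were lower in NIP at 12 h and 36 h, and 2.21% and 0.98% passed in NIL. Akap5 fell by 1.32 ± 0.34 at 12 h and 2.37 ± 0.36 at 36 h on the log2 scale (adjusted p = 0.0453 and 0.00453, edgeR). The 12 h call did not hold with every library left out in turn. With the block 5 and 2 partner genes were lower in NIP at 12 h and 36 h (6.54% and 5.15% of all genes). In NIL 1 and 6 were lower with it (3.77% and 11% of all genes).

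Whether time or CPA acted differently in the 2 lines was tested as an interaction. Without the block 0 of the 64 genes passed for time, for CPA at 12 h or for CPA at 36 h, and 0% of all genes tested did (edgeR). At an unadjusted p under 0.05 there were 15, 4 and 7 (6.11%, 2.36% and 4.4% of all genes), and DESeq2 called 2, 0 and 1 (0.524%, 0.0541% and 0.176%). With the block 3, 0 and 1 passed (0.595%, 0% and 0.128% of all genes), and these were Kcnc4, Kcnh8 and Kcnj2 for time and Kcnc4 for CPA at 36 h. Without the 2 Rn45s-rich libraries 0 passed with the block for time or for CPA at 36 h (0.0263% and 0.0394% of all genes). A call with CPA in NIP and none in NIL is therefore not, apart from Kcnc4 with the block and all libraries, shown to differ between the lines.

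Many genes differed by replicate number, some K2P genes among them, which was seen after the values were known. In the fit with the block 15 of the 64 genes were higher and 15 lower in replicate set 2. Of all genes tested, 24.7% were higher and 24.4% lower. The log2 difference was 1.84 for Kcng1 and -1.25 for Kcnj6, which are not K2P genes, and -0.62 for the K2P gene Kcnk10. Kcnk5 was at 0.465 and 14.3 CPM in CPA-treated NIP at 36 h and at 18.3 and 46.0 CPM in CPA-treated NIL, replicate 1 given before replicate 2. For these library pairs the value of replicate 2 lay above that of replicate 1 in all 10 groups for Kcnk5, Kcnk6 and Kcnk12, by 2.01 ± 0.27, 1.51 ± 0.22 and 1.08 ± 0.19 on the log2 scale in the fit with the block (adjusted p = 7.55e-05, 5.22e-05 and 0.000234, edgeR). These genes are 3 of the 7 with a positive change under CPA in every comparison, and none of them was called without the block. The summed markers of endoderm and endothelium, pluripotency, proliferation and mesenchyme were also higher in replicate 2 in all 10 groups, and those of neurons in 0 of 10; their part in these differences was not tested.

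Sequences before the gene start are shown for Kcnj2 and Kcnt2, which had opposite changes with CPA in NIP at 36 h. Each is the 250 bases before the RefSeq start on GRCm38.p6, plus strand, in lower case with GC boxes (GGGCGG on either strand) in capitals, at chr11:111065914-111066163 for Kcnj2 and chr1:140245468-140245717 for Kcnt2.
Kcnj2: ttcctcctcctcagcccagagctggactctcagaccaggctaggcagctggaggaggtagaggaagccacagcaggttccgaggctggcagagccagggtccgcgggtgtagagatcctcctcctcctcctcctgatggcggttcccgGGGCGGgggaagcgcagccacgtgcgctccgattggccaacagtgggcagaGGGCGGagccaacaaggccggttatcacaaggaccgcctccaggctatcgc
Kcnt2: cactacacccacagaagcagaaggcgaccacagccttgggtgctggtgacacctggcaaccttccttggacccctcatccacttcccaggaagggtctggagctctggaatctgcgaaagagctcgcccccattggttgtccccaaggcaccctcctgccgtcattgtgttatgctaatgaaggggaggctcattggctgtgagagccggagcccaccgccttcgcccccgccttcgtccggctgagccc

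The Kcnj2 stretch holds 2 GC boxes and the Kcnt2 stretch 0, with 65.6% and 61.6% G and C. RefSeq promoter windows of 300 bases, 250 before and 50 after the start, were found for 45 of the 64 genes; those without one include Kcna1, Kcnb2, Kcnd1, Kcng1, Kcnh3, Kcnj11, Kcnj14, Kcnk3, Kcnk6, Kcnk9, Kcnn2, Kcnq3, Kcns2, Kcnt1 and Kcnv1. The composite site of ATF4 and C/EBP (TGATGNAA), the cAMP response element (TGACGTCA) and the ER stress response element (CCAAT, any 9 bases, CCACG) were searched on both strands, and 0 of the 45 windows held any of them. Over all 32851 windows the shares were 3.97%, 1.79% and 0.119%. A GC box lay in 26 of the 45 windows and in 35.7% of all windows; the median G and C content was 64.3% in the 45 and 52.7% in all. These matches describe letters in the windows and say nothing of binding.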

How the data were processed

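RNA-seq was deposited as 20 tables of raw counts, 1 per library. Per the labels' protocols, total RNA was depleted of ribosomal RNA and made into KAPA HyperPrep libraries; per the submitters' processing notes, the tools were Picard, Bowtie2 2.3.2, TopHat2 2.1.1 and HTSeq 0.6.1p1 on GRCm38 (mm10). The counts were made by the authors per gene with HTSeq; the annotation release and the strand setting are not given in the sources used here. Summary lines (5 per file: reads in no feature, ambiguous, not unique and the like) were left out, and 18.2% to 52.6% of reads per library were counted as not unique.

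For the level rule, CPM is the count over the sum of all gene rows, Rn45s included; the CPM values in the text and the log2 changes use library sizes of the tested genes scaled by TMM factors. Groups were taken from the sample labels, and the genes were chosen by symbol and by the level rule. The main test was edgeR 4.0.16 (R 4.3.3), quasi-likelihood with a robust fit, 1 mean for each of the 10 groups (10 residual degrees of freedom), filterByExpr (minimum count 10) and Benjamini-Hochberg adjustment over all 14792 genes tested in each of 12 comparisons, at 0.05. Standard errors are the size of the log2 change over the square root of F. Groups share replicate numbers: in 45 of 45 pairs of groups, deviations from the group means of same-numbered libraries correlated above 0.1 (0.24 to 0.76), so the numbers pair the libraries. The fit with the replicate number as a block is given beside the counts and named genes where it changes a call. DESeq2 1.42.0, RLE scaling, no Rn45s, no low-count filter, the compared groups alone, and leaving out libraries were the alternatives; leaving out both Rn45s-rich libraries with the block was added after seeing the data. No pair of replicate libraries agreed within counting error (chi-square over degrees of freedom 31.9 to 336). The test code was run on simulated counts with known changes. Those counts were drawn independently, with 1 common spread and no replicate effect, so the run does not cover the pairing of libraries seen here. Gene spans, exon lengths and overlaps are from GENCODE on GRCm38, and promoter windows from RefSeq on GRCm38.p6; the GC box was added after seeing the data. Protein sequences were not used here. Genes named in the text are those called in at least 1 comparison without the block, the 10 highest per kilobase and a fixed list of well-known subunits, with exceptions said to be chosen later; some of these are not reported here by name, though all counts include them. The genes, lists and tests were chosen with earlier results of these data known. Intervals cover counting error only.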

Additional observations from a re-analysis of the deposited data

Results flagged for a closer look

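For 3 potassium channel genes the change over time or with CPA differed between the lines by a test of the difference itself, the interaction in the edgeR fit with the replicate number as a block. The change between 36 h and 0 h in NIP minus that in NIL was -2.13 ± 0.37 for Kcnc4 (log2, SE; adjusted p = 0.0200, and 0.315 without the block). Kcnc4 was at 27.5 and 24.7 CPM at 36 h and 54.9 and 32.9 CPM at 0 h in NIP, and at 8.03 and 8.07 CPM at 36 h and 2.65 and 3.81 CPM at 0 h in NIL; with the block the higher level at 36 h in NIL passed (adjusted p = 0.0282) and the lower one in NIP did not (0.0566). The same difference was 2.81 ± 0.61 for Kcnj2 (adjusted p = 0.0486, and 0.371 without the block) and 1.48 ± 0.32 for Kcnh8 (adjusted p = 0.0489, and 0.686 without the block). For Kcnc4 the change with CPA at 36 h in NIP minus that in NIL was 2.08 ± 0.36 (adjusted p = 0.0380, and 0.328 without the block). It was at 95.8 and 82.7 CPM with CPA and 27.5 and 24.7 CPM without in NIP, and at 5.71 and 7.57 CPM with CPA and 8.03 and 8.07 CPM without in NIL. Both Kcnc4 differences use the untreated NIP 36 h libraries, of which replicate 1 had 38.6% of its reads in Rn45s. Without that library and CPA-treated NIL 36 h replicate 2, the block fit gave -2.16, 2.80 and 1.54 for the time differences of Kcnc4, Kcnj2 and Kcnh8 (adjusted p = 0.0661, 0.157 and 0.0645) and 2.32 for the CPA difference of Kcnc4 (0.121), so 0 of the 4 passed.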

How the results depend on the processing

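Counts of potassium channel genes called moved by over 1.5 times as follows. With the replicate block, 31 were called between the lines at 36 h, 15 for time in NIP and 4 in NIL, 22 and 13 for CPA in NIP at 12 h and 36 h, 6 and 15 in NIL, and 3 and 1 for the interactions of time and of CPA at 36 h. DESeq2 called 11 for time in NIP and 3 in NIL, 8 and 11 for CPA in NIP at 12 h and 36 h, 1 and 4 in NIL, and 2 and 1 for those interactions. A fit of the compared groups alone called 12 between the lines at 12 h, 8 for time in NIP, and 7 and 0 for CPA in NIP at 12 h and 36 h. Without the low-count filter 1 was called for time in NIL. Without the 2 libraries rich in Rn45s, 0 were called for time in NIP and 0 for CPA in NIP at 36 h. Leaving out 1 library at a time gave 13 to 21 between the lines at 0 h, 12 to 18 at 12 h and 13 to 15 at 36 h, 0 for time in NIP, 0 to 1 and 0 to 3 for CPA in NIP at 12 h and 36 h, and 0 to 3 for CPA in NIL at 36 h. Without those 2 and with the replicate block, a choice made after seeing the data, 8 were called for time in NIP. Of 870 values for 81 called results of 31 genes, 0 changed sign; with the block all 81 stayed called, with DESeq2 80, and with 1 library left out 188 of 324. With 2 libraries a group, the changes with time and CPA depend most on single libraries, and low genes such as Kcns1 and Kcng3 on few reads. Shares of all genes were not worked out for DESeq2 in NIP, the compared groups alone, no low-count filter or single libraries left out. Whether those counts moved more than the counts over all genes is therefore not known. The cause of these shifts was not tested.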

Other observations

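The summed level of the 62 protein-coding members was highest in untreated NIP at 36 h, at 1669 and 1830 CPM, against 1424 and 1376 CPM with CPA at that time. In NIL at 36 h it was at 921 and 739 CPM with CPA and 1249.8 and 1186 CPM without. These sums are described without a test; CPM values are TMM-scaled.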
